A study of Mus musculus with 8 samples.

Results

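Transcripts of the vascular endothelial growth factor (VEGF) and angiopoietin systems were examined in brain endothelial cells of mouse pups. Some pups carried a genotype label that denotes loss of the glucose transporter GLUT1 in endothelium. The set held 10 genes, chosen by symbol among the 25700 gene identifiers of each count table, and all 10 were found there. It comprised the VEGF receptors Kdr, Flt1 and Flt4, the neuropilin co-receptors Nrp1 and Nrp2, the receptors Tek and Tie1, and the ligands Angpt2, Vegfc and Vegfa. Cells were isolated by flow sorting from C57BL/6 pups on postnatal day 6 and were not cultured. The KO group (genotype GLUT1EC-/-, n = 4 pups) was compared with the WT group (n = 4 pups, described as littermates), with 1 library per pup by the sample titles. The Cre driver, the time of deletion and the surface markers of the sort are not given in the labels. By the titles, WT pup 5 shared a cage with the 4 KO pups and WT pups 1, 2 and 3 came from a second cage. By the names of the deposited tables, WT pup 3 instead of WT pup 5 shared the cage of the KO pups. Under either naming only 1 WT pup was caged with KO pups, so cage was nearly confounded with genotype. Differences between KO and WT pups cannot be fully told apart from differences between cages, and fits with cage as a term lean on that pup.

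VEGF-A binds the kinase receptors VEGFR2 (Kdr), which carries most of its growth and permeability signal in endothelium, and VEGFR1 (Flt1), which binds it tightly and, in its membrane and soluble forms, limits how much reaches VEGFR2. VEGF-C acts mainly through VEGFR3 (Flt4), and neuropilins hold VEGF and semaphorins at these receptors. Tie2 (Tek) is activated by angiopoietin-1, which stabilises vessels, while angiopoietin-2 (Angpt2), made by endothelial cells themselves, antagonises or weakly activates it, and Tie1 (Tie1) modifies Tie2 signalling. In the postnatal mouse brain, where vessels still sprout, this circuit guides tip cells and later vessel maturation.

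The targeted transcript was lower in every KO pup. Slc2a1, which encodes GLUT1, averaged 1507 ± 89.6 CPM (counts of a gene for each M of scaled library counts, M being mega) in KO pups and 3044 ± 664 CPM in WT pups (SD, n = 4 each), a log2 fold change of -1.01 (SE 0.14, edgeR adjusted p 0.00619). With the cages of the table names as a term, the log2 fold change of Slc2a1 was -0.89 (adjusted p 0.331). With the cages of the titles as a term it was -1.31 (adjusted p 0.0207). Library totals ran between 20.9 and 40.8 M counts in KO and between 25.9 and 114 M in WT, and KO pup 1 had the fewest detected genes, 13624. On log2 CPM, the highest correlation of KO pup 1 with any other library was 0.932, while every other library reached at least 0.974. Endothelial markers were abundant in every library: Pecam1, Cdh5, Cldn5, Erg, Emcn, Egfl7 and Esam summed to 8077 to 8790 CPM in KO and 8398 to 8839 CPM in WT.

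The circuit was strongly expressed on its receptor side in both genotypes, and 0 of its 10 genes differed between KO and WT at an adjusted p under 0.05 in edgeR's quasi-likelihood test, where 0.389% of the 14154 tested genes did. The main VEGF receptors Kdr and Flt1 and the receptor Tie1 had fold changes close to 1 with narrow intervals. Tek came nearest to the threshold, 0.815-fold in KO with every KO pup below every WT pup. At an unadjusted p under 0.05 there were 3 genes, Tek, Vegfc and Flt4, all with lower values in KO, against a background of 11.1% of all tested genes (5.61% lower and 5.52% higher). All 10 genes passed the filter on low counts. Fitted log2 fold changes were below 0 for 9 of the 10, with a median of -0.21, while over all tested genes 49.7% were below 0 and the median was 0.002. With the cages of the table names as a term, 0 of the 10 had an unadjusted p under 0.05 (758 of 14154 genes). In that fit 6 of the 10 were below 0 and their median was -0.13. With the cages of the titles as a term, 1 of the 10 had such a p (1003 of 14154 genes). All 10 were below 0 there, with a median of -0.24. In RNA from a sorted population, fewer cells of a type and less RNA per cell cannot be told apart.

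**Figure D1:**
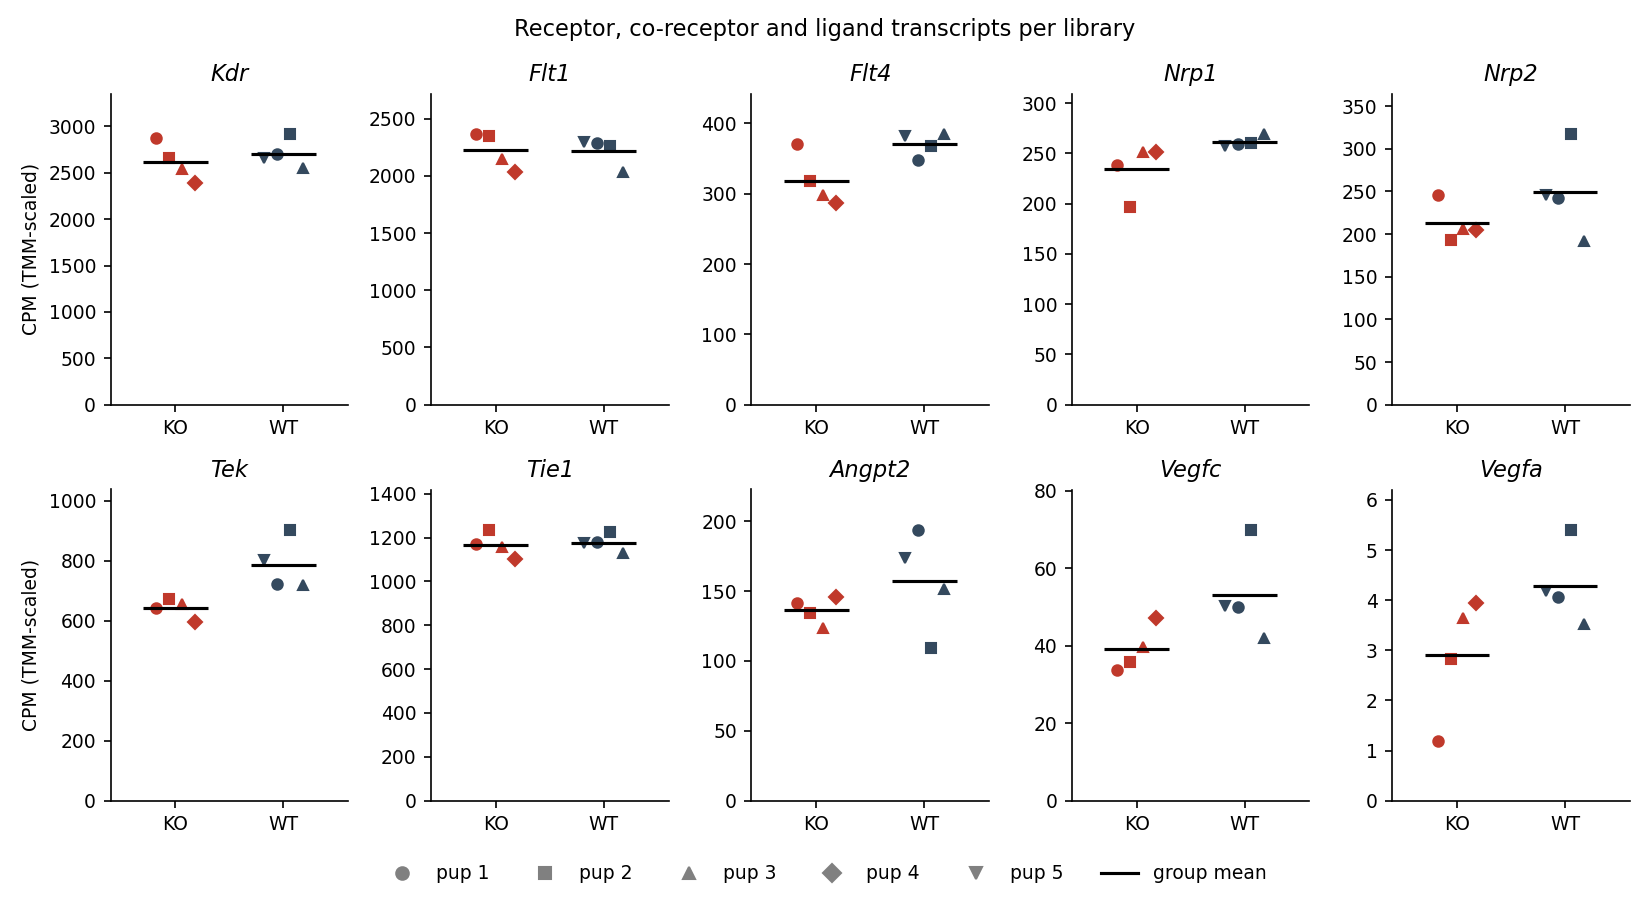
Levels of the 10 transcripts in CPM, scaled between libraries by TMM, with KO pups (red) left of WT pups (blue), marker shapes for pup numbers and black lines for group means; each axis starts at 0. Tek and Nrp1 show 4 KO pups below all 4 WT pups, while the other 8 genes overlap between the groups.

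Kdr (ENSMUSG00000062960; GRCm38 chromosome 5, 75932827 to 75978458, minus strand) was the most abundant member by CPM. It measured 2876, 2663, 2542 and 2387 CPM in KO pups 1 to 4 and 2699, 2917, 2552 and 2657 CPM in WT pups 1, 2, 3 and 5. The groups overlapped over most of their range, with the highest value in WT pup 2 and the lowest in KO pup 4. The log2 fold change was -0.05 (SE 0.07, edgeR adjusted p 0.876), and its 95% interval spanned 0.863-fold to 1.08-fold.

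Flt1 (ENSMUSG00000029648; chromosome 5, 147561604 to 147726011, minus strand) encodes the decoy-like VEGFR1. It measured 2365, 2348, 2147 and 2029.6 CPM in KO pups 1 to 4 and 2284, 2263, 2035 and 2295 CPM in WT pups 1, 2, 3 and 5. Both groups spread over the same range, with KO pup 4 and WT pup 3 at its lower end. Flt1 had the largest p of the 10 genes, with a log2 fold change of 0.002 (SE 0.07, adjusted p 0.996) and an interval of 0.895-fold to 1.12-fold. Counts were made per gene, so soluble and membrane-bound forms of Flt1 were not separated.

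Flt4 (ENSMUSG00000020357; chromosome 11, 49609263 to 49652739, plus strand) encodes the VEGF-C receptor, which marks sprouting blood endothelium as well as lymphatic endothelium. KO pups 1 to 4 had 370.0, 318, 299 and 287 CPM, and WT pups 1, 2, 3 and 5 had 348, 368, 385 and 383 CPM. Of the KO pups, 3 lay below the lowest WT pup, and KO pup 1 lay inside the WT range. The log2 fold change of -0.22 (SE 0.09, unadjusted p 0.0270) did not pass, with an adjusted p of 0.365. Leaving out any single library gave -0.30 to -0.18 (adjusted p 0.131 to 0.557 in edgeR), the lowest without KO pup 1. With either set of cages as a term Flt4 was at -0.27 (adjusted p 0.752 with the titles and 0.997 with the table names). Of the lymphatic markers, Prox1 was low, at 1.25 to 7.89 CPM in KO and 1.93 to 3.31 CPM in WT, and Pdpn at 0.204 to 3.99 CPM in KO and 1.22 to 3.74 CPM in WT. The whole lymphatic list of 3 genes, of which 0 were called, summed to 167 to 334 CPM in KO and 141 to 230.0 CPM in WT, nearly all from Lyve1, which brain macrophages also express. Its part in the Flt4 values was not tested.

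The neuropilins bind VEGF-A and VEGF-C beside the kinase receptors, and they also bind class 3 semaphorins. Nrp1 (ENSMUSG00000025810; chromosome 8, 128358604 to 128503363, plus strand), the neuropilin of arteries and tip cells, measured 238, 197, 252 and 251 CPM in KO pups 1 to 4 and 259, 260.5, 269 and 258 CPM in WT pups 1, 2, 3 and 5. The 4 WT pups lay within a narrow band and all 4 KO pups lay below it, KO pups 3 and 4 by a small margin and KO pup 2 by the widest. Its log2 fold change was -0.16 (SE 0.08, adjusted p 0.540), and without KO pup 2 it was -0.09. With Tek, Nrp1 was 1 of 2 members whose groups did not overlap, both with KO below WT. Over all tested genes 3.43% were separated in that direction, 3.77% with KO above WT and 7.19% in either.

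Nrp2 (ENSMUSG00000025969; chromosome 1, 62703285 to 62818695, plus strand), the neuropilin of veins and lymphatics, had 246, 193, 206 and 204 CPM in KO pups 1 to 4 and 242, 317, 192 and 246 CPM in WT pups 1, 2, 3 and 5. WT pups 2 and 3 were the highest and the lowest of all 8 libraries. For Nrp2 the log2 fold change was -0.23 (SE 0.14, adjusted p 0.578). Without WT pup 2 it was -0.10, and with the cages of the table names as a term it was 0.14.

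Tek (ENSMUSG00000006386; chromosome 4, 94739289 to 94874976, plus strand) encodes Tie2, the receptor of both angiopoietins. It measured 643, 671, 655 and 595 CPM in KO pups 1 to 4 and 724, 902, 719 and 802 CPM in WT pups 1, 2, 3 and 5. The highest KO pup lay below the lowest WT pup, and WT pup 2 stood above the other WT pups. Means were 641 ± 32.6 CPM for KO pups and 787 ± 85.9 CPM for WT pups (SD, n = 4 each). The fitted log2 fold change was -0.30, its SE 0.09 and its 95% interval -0.48 to -0.11. Tek ranked 348 by p among all tested genes, and its edgeR adjusted p of 0.211 did not pass. DESeq2, which called 2.31% of the genes it tested (1.27% lower in KO), called Tek at an adjusted p of 0.0372, and limma-voom did not (adjusted p 0.164). Leaving out any single library gave log2 fold changes between -0.34 and -0.23 and adjusted p values between 0.181 and 0.368 in edgeR. In a fit to the cage that the titles give the KO pups, where WT pup 5 is the only WT pup, the log2 fold change was -0.32, and with the cages of the table names as a term it was -0.17 (adjusted p 0.9995).

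Tie1 (ENSMUSG00000033191; chromosome 4, 118471191 to 118490061, minus strand), the related receptor that pairs with Tie2 and has no well established ligand of its own, showed no such difference. It had 1171, 1234, 1159 and 1101 CPM in KO pups 1 to 4 and 1177, 1224, 1132 and 1176 CPM in WT pups 1, 2, 3 and 5. The WT values fell entirely inside the KO range. Its interval was the narrowest of the 10, 0.899-fold to 1.09-fold around a log2 fold change of -0.01 (SE 0.06, adjusted p 0.968).

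Upstream sequence is shown for the members with the smallest and the largest p in the comparison, Tek and Flt1, as the 250 bases that precede the RefSeq transcript start (GRCm38.p6; Tek at chr4:94739039-94739288, plus strand; Flt1 at chr5:147726012-147726261, minus strand), 5′ to 3′ on the gene's strand. Capitals mark matches to GGAA or, on the other strand, TTCC, the core of sites bound by the ETS transcription factors common in endothelial promoters.
Tek: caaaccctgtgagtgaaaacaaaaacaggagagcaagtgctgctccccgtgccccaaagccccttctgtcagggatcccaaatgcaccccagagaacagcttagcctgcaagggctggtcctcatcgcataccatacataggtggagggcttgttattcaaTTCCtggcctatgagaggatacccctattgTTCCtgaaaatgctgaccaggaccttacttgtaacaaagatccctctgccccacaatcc
Flt1: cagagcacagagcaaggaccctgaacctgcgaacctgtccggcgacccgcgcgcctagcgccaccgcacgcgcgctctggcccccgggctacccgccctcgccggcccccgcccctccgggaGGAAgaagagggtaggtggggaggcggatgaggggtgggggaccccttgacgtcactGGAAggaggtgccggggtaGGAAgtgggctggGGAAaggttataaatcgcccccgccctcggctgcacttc
The Tek stretch held 2 matches and the Flt1 stretch 4. At least 1 match occurred in 93.4% of the 32851 upstream stretches of the same length in the RefSeq table, and the median was 3. The hypoxia core ACGTG, searched on both strands and found in 16.6% of all stretches, was in neither of these. The forkhead motif GTAAACA, searched likewise and found in 3.17%, was also in neither, which says nothing about sites elsewhere.

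Angpt2 (ENSMUSG00000031465; chromosome 8, 18690263 to 18741562, minus strand), the angiopoietin released by activated and sprouting endothelium, measured 141, 135, 123 and 146 CPM in KO pups 1 to 4. WT pups 1, 2, 3 and 5 had 194, 109, 152 and 174 CPM. The 4 KO pups clustered between the WT extremes: 3 WT pups were above all KO pups and WT pup 2 was below them. Its log2 fold change was -0.20 (SE 0.15, adjusted p 0.675), without WT pup 1 it was -0.08 (adjusted p 0.924) and without WT pup 2 it was -0.35 (adjusted p 0.256). WT pup 2 also had the lowest sum of the 7 mural markers, 403 CPM, whereas the other libraries had between 1162 and 2272 CPM. The list summed to 1492 to 2272 CPM in KO and 403 to 2259 CPM in WT, 0 of its 7 genes were called, and its part in the Angpt2 values was not tested.

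Vegfc (ENSMUSG00000031520; chromosome 8, 54077606 to 54187096, plus strand), the Flt4 ligand, had 33.6, 35.8, 39.7 and 47.1 CPM in KO pups 1 to 4 and 50.1, 69.9, 41.9 and 50.2 CPM in WT pups 1, 2, 3 and 5. KO pups 1 to 3 lay below all WT pups, while KO pup 4 was above WT pup 3. The log2 fold change was -0.44 (SE 0.16, unadjusted p 0.0172), and the adjusted p of 0.316 did not pass. Dropping WT pup 2 gave -0.28, and dropping KO pup 1 as well gave -0.21. With the cages of the table names as a term, Vegfc was at -0.10 (adjusted p 0.9995).

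Vegfa (ENSMUSG00000023951; chromosome 17, 46016993 to 46032369, minus strand), which in brain comes mainly from cells outside the endothelium, had the lowest CPM of the 10 genes in every library. It had 1.20, 2.82, 3.64 and 3.94 CPM in KO pups 1 to 4 and 4.05, 5.40, 3.52 and 4.18 CPM in WT pups 1, 2, 3 and 5. The low value of KO pup 1 came from 25 reads, whose exact Poisson interval of 0.776 to 1.77 CPM covers counting error only and lies below the values of the other 7 libraries. The log2 fold change of -0.56 had the widest interval of the 10 genes, -1.35 to 0.23 (SE 0.36, adjusted p 0.623). Without KO pup 1 it was -0.31 (SE 0.24), and with the cages of the table names as a term -0.27.

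Transcripts of cells that could bring Vegfa into the sort differed in level between libraries. The choroid plexus markers Ttr, Folr1 and Kl, 0 of which were called, summed to 10.8 to 280.2 CPM in KO and 356 to 1836 CPM in WT, almost all from Ttr, and Kl had 0 counts in KO pup 1. The 6 astrocyte markers summed to 303 to 399 CPM in KO and 311 to 369 CPM in WT, mostly from Gja1, which endothelium also expresses. The more restricted Gfap was at 17.8 to 65.1 CPM in KO and 5.41 to 23.9 CPM in WT. By edgeR 0 of the 6 were called, and 5 had an unadjusted p under 0.05 (11.1% of all tested genes). Gfap, Aqp4, Slc1a2 and Aldh1l1 were higher in KO, at log2 fold changes of 1.03 to 1.43, and Gja1 was lower, at -0.23. The 5 neuronal markers stayed at 16.8 to 21.3 CPM in KO and 17.4 to 26.5 CPM in WT, with Snap25 and Syt1 at 0 in KO pup 1. The 7 microglial markers summed to 416 to 1149 CPM in KO and 435 to 699 CPM in WT. The part of these cells in the Vegfa values was not tested.

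**Figure D2:**
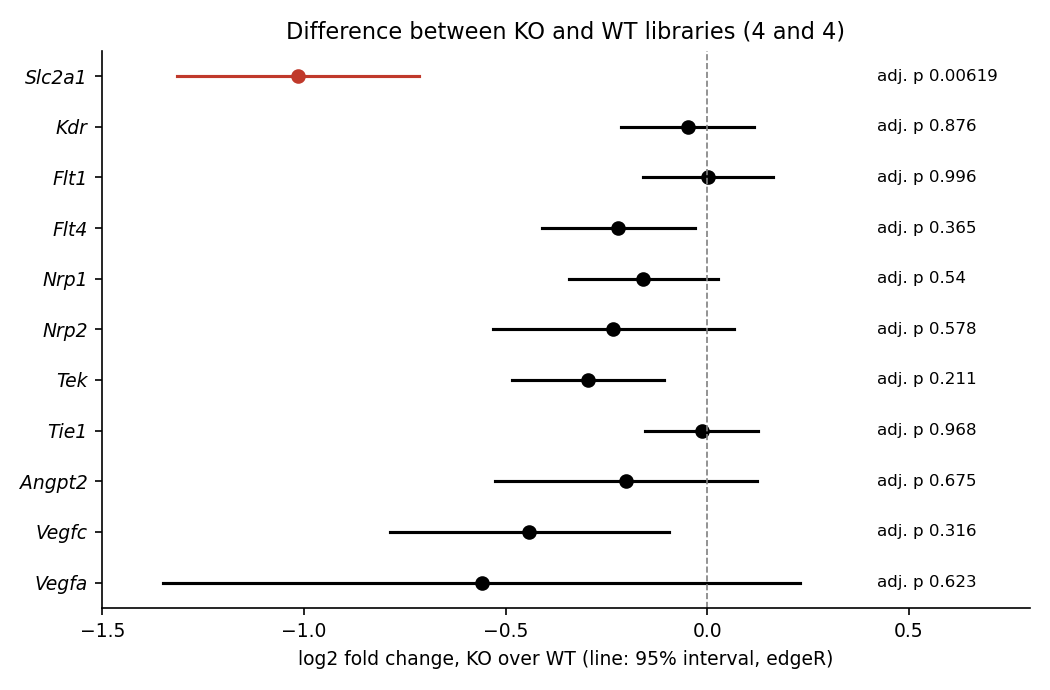
Log2 fold change of KO over WT for Slc2a1 (red) and the 10 genes (black), with 95% intervals from edgeR's quasi-likelihood fit and adjusted p values at the right. Slc2a1 is at -1.01 with an adjusted p of 0.00619, while the 10 genes lie between -0.56 and 0.002 and none has an adjusted p below 0.211.

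Levels were set against each other per kilobase of exon, since the exon lengths ranged between 2.45 kb for Vegfc and 13.5 kb for Flt1. On this scale Kdr stood first in both groups, at 289.8 ± 22.8 CPM per kb in KO and 299.7 ± 17.0 CPM per kb in WT, and Tie1 second, at 237 ± 11.1 in KO and 239 ± 7.65 in WT. Kdr exceeded Tie1 in all 8 libraries, and Tie1 exceeded Tek and Flt1 likewise. Tek and Flt1 shared the next place: Tek was above Flt1 in 0 of 4 KO pups and 3 of 4 WT pups, at 136 ± 6.92 against 165 ± 12.02 CPM per kb in KO and 167 ± 18.2 against 164 ± 9.14 in WT. Flt4 and Angpt2 followed and were not separated, Flt4 being the higher in 3 of 4 KO and 2 of 4 WT pups. Nrp1 came next, and the WT ranges of Nrp1, Vegfc and Nrp2 overlapped. Vegfa was last by a wide gap, at 0.676 ± 0.287 CPM per kb in KO and 1.001 ± 0.185 in WT. The exon length counts every annotated exon once, and which isoforms the cells used was not measured.

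**Figure D3:**
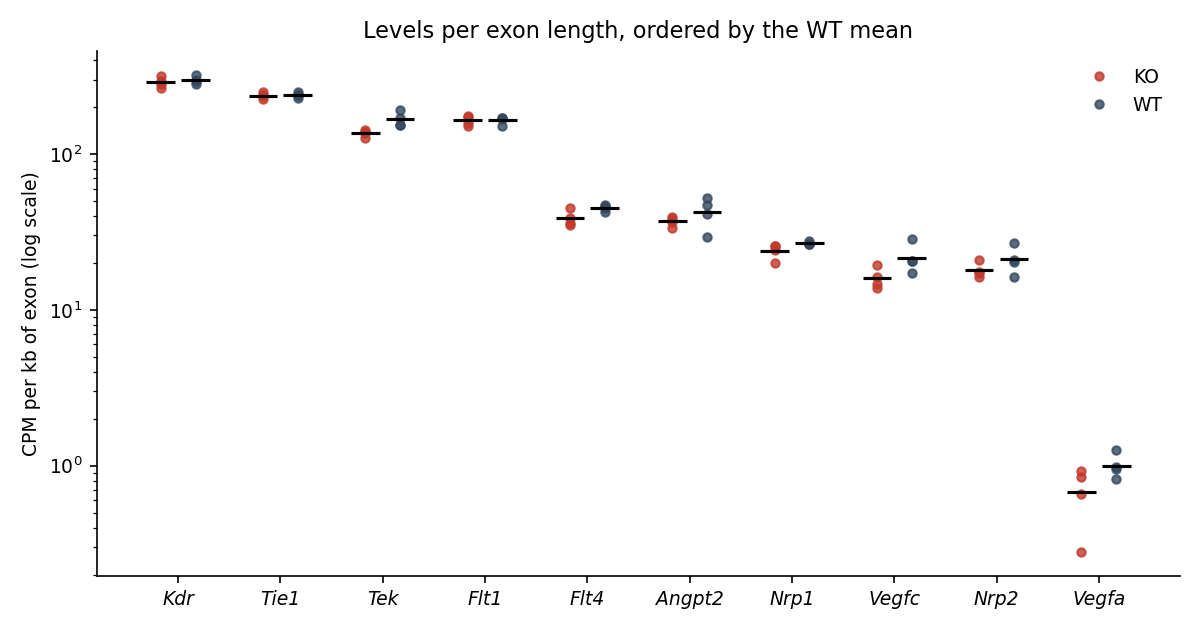
CPM per kb of exon on a log axis for the 10 genes, ordered by the WT mean, with KO pups (red) left of WT pups (blue) and black lines for means. Kdr and Tie1 stand above all others, and Vegfa lies near 1 CPM per kb. Tek lies below Flt1 in every KO pup, while their ranges overlap in WT pups.

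Ratios of partner transcripts within a library do not depend on the scaling between libraries, and 6 were tested by exact permutation (two-sided, all 70 ways to label the pups). The Tie1 to Tek ratio was 1.82, 1.84, 1.77 and 1.85 in KO pups 1 to 4 and 1.63, 1.36, 1.57 and 1.47 in WT pups 1, 2, 3 and 5. It was higher in 4 of 4 KO pups than in any WT pup and varied little within KO. The log2 difference was 0.28, with an exact p of 0.0286, the smallest that 4 against 4 pups can give. Adjusted over the 6 ratios it was 0.171, and a ratio that alone reached the smallest p could not pass this correction. The Flt4 to Kdr ratio averaged 0.121 ± 0.00496 over the KO pups and 0.138 ± 0.0118 over the WT pups (SD, n = 4 each; exact permutation p = 0.0571, adjusted 0.171).

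The other 4 ratios had adjusted exact permutation p values of 0.571 or above. Flt1 to Kdr, the balance of decoy-like to signalling VEGF receptor, was 0.850 ± 0.0246 in KO and 0.821 ± 0.0411 in WT. Angpt2 to Tek was 0.214 ± 0.0249 in KO and 0.204 ± 0.0611 in WT. Nrp2 to Nrp1 was 0.912 ± 0.113 in KO and 0.955 ± 0.206 in WT. Vegfc to Vegfa lay between 10.9 and 12.9 in 7 libraries and reached 28.0 in KO pup 1, the library with 25 Vegfa reads.

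**Figure D4:**
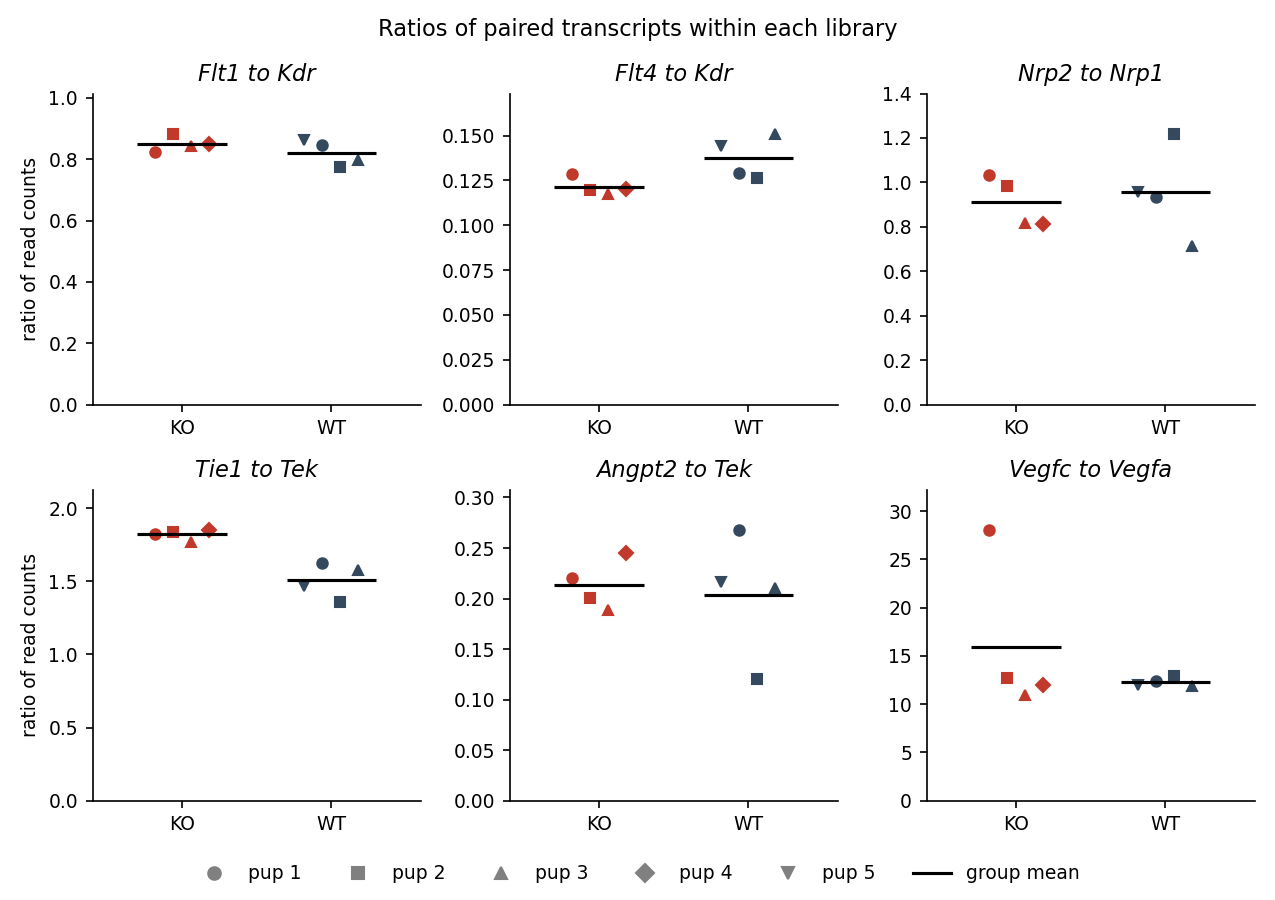
Ratios of read counts within each library for 6 pairs of transcripts, with KO pups (red) left of WT pups (blue), marker shapes for pup numbers and black lines for means. The Tie1 to Tek ratio is at 1.77 to 1.85 in KO and 1.36 to 1.63 in WT, and the other 5 ratios overlap between the groups.

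Around the 10 genes, 79 further genes of these pathways were followed, of which 75 were tested and 0 were called by edgeR (background 0.389%). At an unadjusted p under 0.05 there were 12, with 8 lower and 4 higher in KO. The background at that threshold was 11.1% of all tested genes, 5.61% lower and 5.52% higher. The median log2 fold change of the 75 genes was -0.06. Among the receptor phosphatases and adaptors (13 of 14 tested), the adaptor Grb10 came closest. It had 209, 185, 201 and 187 CPM in KO pups 1 to 4 and 254, 256, 235 and 271 CPM in WT pups 1, 2, 3 and 5, without overlap (log2 fold change -0.38, SE 0.07, adjusted p 0.0616). Shb, an adaptor that binds activated VEGFR2, was at 27.2 ± 2.29 CPM in KO and 35.3 ± 3.14 CPM in WT (-0.37, adjusted p 0.196). DESeq2 called Grb10 lower (adjusted p 0.000215), and limma-voom did too (adjusted p 0.0415).

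Downstream, the nitric oxide synthase gene Nos3 was at 567 ± 66.1 CPM in KO and 711 ± 61.8 CPM in WT (log2 fold change -0.33, adjusted p 0.229), and Src at -0.28 (adjusted p 0.412), with 0 of 14 kinase and effector genes called. Foxo1, a factor that Tie2 signalling through Akt restrains and that can induce Angpt2, was at 136 ± 10.5 CPM in KO and 167 ± 17.4 CPM in WT (-0.29, adjusted p 0.237), and Foxo3 at -0.15 (adjusted p 0.656; -0.09 without WT pup 5). Of the 13 VEGF response genes, 8 had fold changes above 0 and 5 below, with a median of 0.06 and none called. The 2 with the smallest p were Hlx, a homeobox gene, at 0.37 (adjusted p 0.319), and Igfbp3 at -0.85 (adjusted p 0.475). DESeq2 called Nos3 (adjusted p 0.0485) but neither Foxo1 nor Hlx.

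The remaining lists gave the same count of 0 called genes. Of the other ligands, 4 of 6 were tested, with Vegfd at 0.45 (adjusted p 0.730; 0.28 without KO pup 1) and the placental growth factor gene Pgf at -0.82 (adjusted p 0.761). Pgf had 0 counts in KO pup 1, and it was at -0.41 without that pup and -1.45 without KO pup 4. Angpt4 had 0 counts in all 8 libraries, which allows up to 3 counts in each. Angpt1, the main activating ligand of Tie2 and named here after its values were seen, was scarce at 4.81 ± 0.836 CPM in KO and 4.07 ± 1.28 CPM in WT. The proprotein convertase genes Pcsk5 and Furin, whose enzymes can process VEGF-C, were at -0.46 (adjusted p 0.546) and -0.13 (adjusted p 0.547). Without WT pup 2, Pcsk5 was at -0.18. Of the trafficking genes, the endocytic adaptor Dab2 was at 0.32 (adjusted p 0.346) and the early endosome gene Rab5a at 0.18 (adjusted p 0.521). Of the 12 semaphorins and plexins, which share the neuropilins with VEGF, 10 had fold changes below 0 (49.7% of all tested genes). Among them Sema3a, Sema3b, Sema3d, Sema3e and Plxna3 were scarce, with SEs of 0.33 to 1.07. The median of the 12 was -0.17. The 2 with the smallest p were the 2 above 0: Plxna4 was at 39.4 ± 13.5 CPM in KO and 22.3 ± 3.86 CPM in WT (0.82, adjusted p 0.182), and Sema3c at 0.60 (adjusted p 0.284; 0.34 without KO pup 2). DESeq2 called Plxna4 higher (adjusted p 0.0155).

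Across the 18 alternative settings, Vegfa, Vegfc, Flt4, Nrp1, Tek and Angpt2 lay below 0 each time, while Kdr, Flt1, Nrp2 and Tie1 took both signs. Tek under DESeq2 was the single call.

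**Figure D5:**
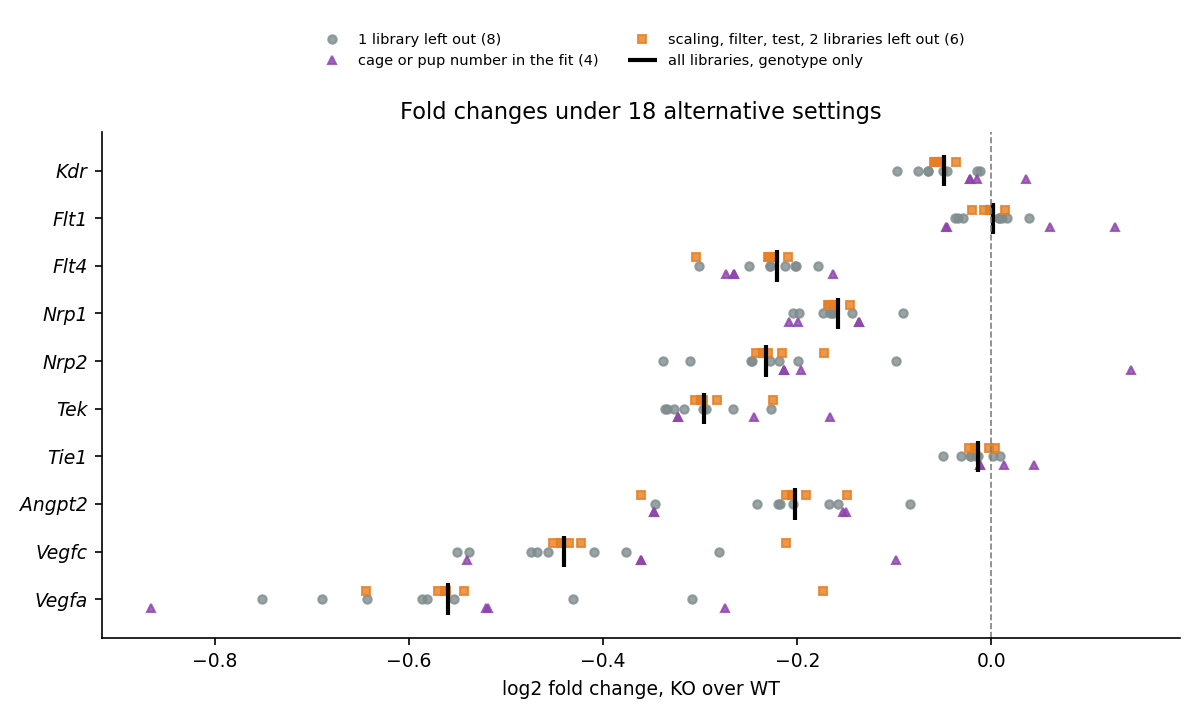
Log2 fold changes of the 10 genes with all libraries and genotype as the only term (black bars) and under 18 alternative settings: 1 library left out (grey circles), cage or pup number in the fit (purple triangles), and another scaling, filter or test or 2 libraries left out (orange squares). Values for Flt1 and Tie1 fall on both sides of 0, and those for Tek lie between -0.34 and -0.17.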

How the data were processed

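Messenger RNA of sorted brain endothelial cells was profiled in 8 libraries. Per the labels' protocols, stranded poly(A) libraries were read as single-end 100 bp reads. The authors deposited whole-number counts per gene, 1 table per library, per the file headers; the submitters' processing notes name STAR, featureCounts and GRCm38, while versions, annotation release and strand setting were not given in the sources used here. Reads on opposite strands might therefore be mixed, although no member shares exons with another gene of the tables in GENCODE M21, which supplied symbols, coordinates and exon lengths.

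Groups came from the titles. Counts were filtered by filterByExpr (minimum count 10, minimum total 15; 14154 genes kept), scaled by TMM and tested with edgeR 4.0.16 in R 4.3.3 by the quasi-likelihood F test with genotype as the only term. Benjamini-Hochberg adjustment ran over the 14154 genes (threshold 0.05). CPM used the TMM-scaled totals, and a count of 0 allows up to 3 counts. The fit was tested on simulated data. Alternatives used DESeq2 1.42.0, limma 3.58.1, other scalings, no filter, cage terms, a block and left-out libraries; leaving out KO pup 1 and WT pup 2 together was chosen after seeing the data. No pair of libraries was a duplicate (chi-square per gene at least 16.0).

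The members and the gene lists were chosen with earlier results of these data known. Named genes were the members, Slc2a1 and, per pathway list, called genes or else the 2 with the smallest p.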

Additional observations from a re-analysis of the deposited data

Results flagged for a closer look

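Within-group spread was checked for 66 groups of 4 pups, and 3 held a pup far from the other 3; chance flags about 1 in 20 groups. Flt1 in WT pup 3 was 2035 CPM, while the other WT pups had 2263 to 2295 CPM. Shb in WT pup 1 was 30.7 CPM, and the other WT pups had 36.5 to 37.5 CPM. The Vegfc to Vegfa ratio in KO pup 1 was 28.0, against 10.9 to 12.7 in the other KO pups, with Vegfa at 25 reads in that library.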

How the results depend on the processing

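Of the single-gene values, 459 kept their direction and their side of the threshold under an alternative, 7 became called, 2 lost the call and 18 changed sign; of the counts and ratios, 139 kept theirs, 22 moved and 7 changed sign. Among the members, called genes numbered 0 under every alternative except DESeq2, which called 1 lower (Tek). Sign changes of members and named genes had no call on either side, and the cause was not tested. With the cages of the table names as a term, Kdr was at 0.036, Nrp2 at 0.14, Tie1 at 0.044 and Pcsk5 at 0.15. Flt1 was at -0.0012 with DESeq2 size factors and in the DESeq2 test, -0.0075 with no filter, -0.0015 with limma-voom, -0.046 with the cage by title as a term or within that cage, and -0.020 without KO pup 1 and WT pup 2, where Tie1 was at 0.0034. With 1 library left out, Flt1 ranged between -0.037 and 0.039 and Tie1 between -0.050 and 0.0090.

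Over all genes, 39 were called higher and 16 lower. DESeq2 called 147 and 180, and with no filter 38 were lower. The cage by title as a term gave 10 and 6, the cage by table name 10 and 0 (758 at an unadjusted p under 0.05), and the fit within the cage by title 10 higher. Leaving out 1 library gave 25 to 60 higher and 6 to 27 lower, with the most higher without KO pup 1 (60, and 25 lower), the fewest higher without KO pup 2 (25), the fewest lower without KO pup 3 (6) and the most lower without WT pup 3 (27). Without KO pup 1 and WT pup 2 together, 26 were lower. Of the other pathway genes, 0 were called; DESeq2 called 1 higher and 2 lower, and no filter, limma-voom and leaving out KO pup 1 called 1 lower each (Grb10), so leaving out 1 library gave 0 to 1.

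Ratios with 1 library left out ranged between -0.055 and 0.40 for Vegfc to Vegfa, -0.18 and 0.075 for Nrp2 to Nrp1, and -0.12 and 0.27 for Angpt2 to Tek on the log2 scale. Without KO pup 1 and WT pup 2 together they were -0.030, 0.013 and -0.13. With 1 pup left out the exact permutation test cannot give a p below 0.0571.

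Pup numbers 1 to 3 occur in both genotypes, but same-numbered pups correlated at -0.07 to 0.03 in their deviations from the group means, and 0 of 3 KO pups correlated best with their own number, so the numbers do not pair the pups. With pup number as a replicate block, edgeR called 11 genes higher and 0 lower (956 at an unadjusted p under 0.05), 0 members were called, Tie1 was at 0.013, and Slc2a1 had an adjusted p of 0.0931. In the fits with cage terms the contrast leans on 1 WT pup housed with KO pups. Vegfa had 25 to 165 reads per KO library and 106 to 602 per WT library.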

Other observations

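Single libraries took the extremes for many of the 10 genes. KO pup 4 had the lowest value of all 8 libraries for 5 of them (Kdr, Flt1, Flt4, Tek and Tie1) and KO pup 1 for 2 (Vegfa and Vegfc). WT pup 2, the deepest library, had the highest value for 5 (Vegfa, Vegfc, Kdr, Nrp2 and Tek) and the lowest for Angpt2. Together the 10 transcripts took 0.705% to 0.808% of counts in the KO libraries and 0.748% to 0.844% in those of WT pups. Kdr and Flt1 made up 62.6% to 64.8% of that share in the KO libraries and 61.3% to 62.4% in those of WT pups.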
